A study of Mus musculus with 6 samples.

Results

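The genes described here are the potassium channel genes of the newborn mouse brain, taken as every row of the deposited count table with a symbol of the Kcn family that names a pore-forming or accessory subunit (Kcn, a letter and a number, Kcnma1, Kcnip or Kcnmb). They are 94 of the 24391 rows. A gene was tested where at least 3 of 6 libraries had a CPM (counts scaled to a common library size) of 1 or more, a condition that 76 of these 94 genes and 14494 of all rows met. The samples were hemibrains taken at postnatal day 0, 3 from mice labelled Celf2 -/- (null, pups 2, 4 and 10) and 3 from mice labelled Celf2 +/- (heterozygous, pups 6, 7 and 11). All 6 mice thus carried at least 1 mutant Celf2 allele and no wild-type brain was in the comparison. The sources used here do not give how the allele was made, whether it was lost in every cell, or the strain, sex and litter of the pups. Celf2 encodes an RNA-binding protein of the CELF family. The comparison, as labelled, sets brains with no intact copy of it beside brains with 1. The p-values set the difference between the groups against the spread between pups within a group. Nothing in the labels says whether the pups came from separate litters, so the spread between litters may not be covered.

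Potassium channels let potassium ions leave the cell along their gradient, which brings the membrane back to rest after a spike and sets how readily a neuron fires. Voltage-gated Kv channels open on depolarization, inward rectifiers hold the membrane near rest, K2P channels carry the background leak, and the calcium- and sodium-activated channels follow activity inside the cell. Their pores are tetramers, or dimers in the K2P class, and accessory subunits change how fast they open and where they sit. In the newborn brain most neurons are still immature, and the set of channels they transcribe is changing.

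Libraries held 28831997 to 36531980 counts, of which the 94 potassium channel rows took 53095 to 79196, or 0.184% to 0.218%. The lowest share was in null-labelled replicate 2, where the ribosomal precursor Rn45s took 11.8% of counts, against 0.194% to 1.27% in the other libraries. The Y-linked genes Ddx3y, Eif2s3y, Kdm5d and Uty summed to 172 CPM in null-labelled replicate 2. They summed to 178 and 186 CPM in heterozygous-labelled replicates 6 and 11, and to 0 CPM in the other libraries. Sex as read from these genes was thus not balanced between the groups. Neuronal markers, 6 of 6 tested, summed to 5377 to 5774 CPM in null-labelled and 5241 to 5989.7 CPM in heterozygous-labelled libraries, so RNA of neurons was present in every library. Telencephalic genes (6 of 6 tested) summed to 1108 to 1249 CPM in null-labelled and 793 to 908 CPM in heterozygous-labelled libraries. Hindbrain Hox genes (3 of 8 tested) summed to 2.61 to 5.64 CPM in null-labelled and 7.88 to 143 CPM in heterozygous-labelled libraries, of which heterozygous-labelled replicate 7 alone held the highest and the others 14.2 and 7.88 CPM, and Hoxa5, Hoxb5 and Hoxb8 were at 0 in some libraries. Midbrain genes (5 of 6 tested) summed to 7.67 CPM in null-labelled replicate 2, against 34.3 to 44.5 CPM in null-labelled replicates 4 and 10 and the heterozygous-labelled libraries, with Foxa2 and Pitx3 at 0 in some. Astrocyte genes (8 of 8 tested) summed to 1090.2 to 1346 CPM in null-labelled and 1416 to 1496 CPM in heterozygous-labelled libraries. The groups did not overlap for the telencephalic, hindbrain and astrocyte sums. All 8 astrocyte genes had negative fold changes. Apoe, the largest part of the astrocyte sum, was at 428, 573 and 551 CPM in null-labelled replicates 2, 4 and 10. It was at 696, 701 and 642 CPM in heterozygous-labelled replicates 6, 7 and 11 (log2 fold change -0.39). For Slc1a3, the next largest, the groups overlapped (log2 fold change -0.04). Immediate-early genes (8 of 8 tested) summed to 296 CPM and 923 CPM in null-labelled replicates 2 and 4 and to 45.8 CPM in null-labelled replicate 10, against 49.4 to 64.4 CPM in the heterozygous-labelled libraries. The part of brain region, cell composition or activity in the values below was not tested, and in such bulk tissue fewer cells of a type and less RNA per cell cannot be told apart.

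**Figure D1:**
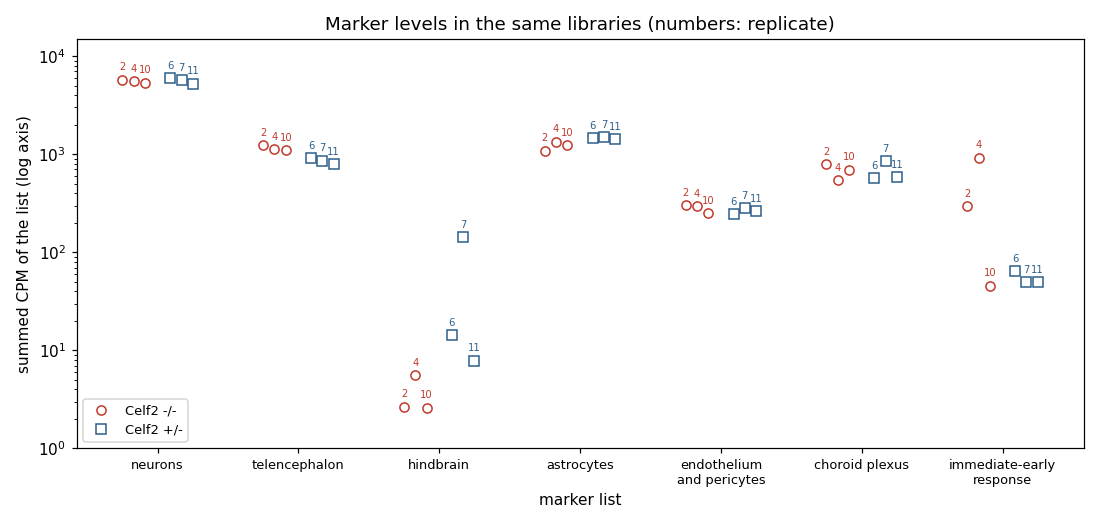
Summed CPM of 7 marker lists (log axis) in each library, with null-labelled libraries as red circles on the left of each list and heterozygous-labelled libraries as blue squares on the right, numbered by replicate. The telencephalic, hindbrain and astrocyte sums do not overlap between the groups, and the immediate-early sum is raised in null-labelled replicates 2 and 4.

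Celf2 itself was at 448, 391 and 331 CPM in null-labelled replicates 2, 4 and 10, against 459, 404 and 363 CPM in heterozygous-labelled replicates 6, 7 and 11. The groups overlapped widely. Celf2 averaged 389.7 ± 58.4 CPM in null-labelled and 409 ± 48.3 CPM in heterozygous-labelled libraries (SD, n = 3 each). An exact permutation test over the samples, two-sided, gave p = 0.7, where this design allows no p below 0.1. Its log2 fold change was -0.07 (95% interval -0.33 to 0.19, edgeR adjusted p = 0.949). The gene total does not show which exons were read, so it does not check the labels, and every direction given here rests on them. The libraries are therefore called null-labelled and heterozygous-labelled.

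No potassium channel gene differed between the genotypes past the threshold of edgeR's quasi-likelihood test. At an adjusted p of 0.05 the count was 0 of 76, and over all 14494 genes tested it was also 0 (0%). The smallest adjusted p of a channel gene was 0.502. DESeq2 called 0 of the 76 and 60 of the 14488 genes to which it gave an adjusted p (0.414%), and limma-voom called 0. At an unadjusted p of 0.05, edgeR counted 11 channel genes, or 14.5%, where 7.06% of all genes tested were counted. Of these, 4 had higher values in null-labelled libraries (5.26%, against 4.15% of all genes) and 7 had lower values (9.21%, against 2.92% of all genes). With library size alone as the scaling the split was 0 higher and 9 lower. The split also varied with single libraries. Without null-labelled replicate 2 it was 5 higher and 5 lower. It was 1 and 7 without null-labelled replicate 4, and 4 and 7 without null-labelled replicate 10. Without heterozygous-labelled replicates 6, 7 and 11 in turn it was 1 and 4, 2 and 3, and 6 and 9. Leaving out 1 heterozygous-labelled library moved the count of channel genes in both directions together and that over all genes the same way. It was 5 (6.58%, against 5.002% of all genes) without heterozygous-labelled replicate 6. It was also 5 (6.58%, against 3.49%) without heterozygous-labelled replicate 7. Without heterozygous-labelled replicate 11 it was 15 (19.7%, against 10.2%). Of the 11 genes, Kcnt1 and Kcnj4 had an unadjusted p under 0.05 in all 17 alternative fits, Kcna3 and Kcnc2 in 16, Kcnj16 in 15, Kcnip1 in 14, Kcna2 and Kcnip2 in 13, Kcnq3 and Kcnj6 in 11, and Kcnh7 in 10. The fits reuse the libraries by which the genes were picked, so the tally is no separate support.

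The median log2 fold change of the 76 tested channel genes was -0.02, beside -0.001 over all genes tested, with 35 positive and 41 negative. With library size alone 26 were positive and 50 negative, while the median of all genes moved to -0.08. An absolute log2 fold change under 0.2 was found for 49 channel genes (64.5%), beside 79.5% of all genes. Values ran from -0.65 for Kcnj16 to 0.56 for Kcne4. The size of change that the data allow can be read from the intervals. For 50 of the 76 genes the 95% interval lay wholly within a 1.5-fold change in either direction, and for 73 it lay within 2-fold. The groups did not overlap for 6 channel genes with higher values in null-labelled libraries (7.89%, against 6.22% of all genes) and for 9 with lower values (11.8%, against 6.49%). All 11 genes with an unadjusted p under 0.05 are among these, together with Kcnd3, Kcnh5, Kcna1 and Kcnmb4. Kcnh5, a Kcnh gene named after its values were seen, had a log2 fold change of 0.34.

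**Figure D2:**
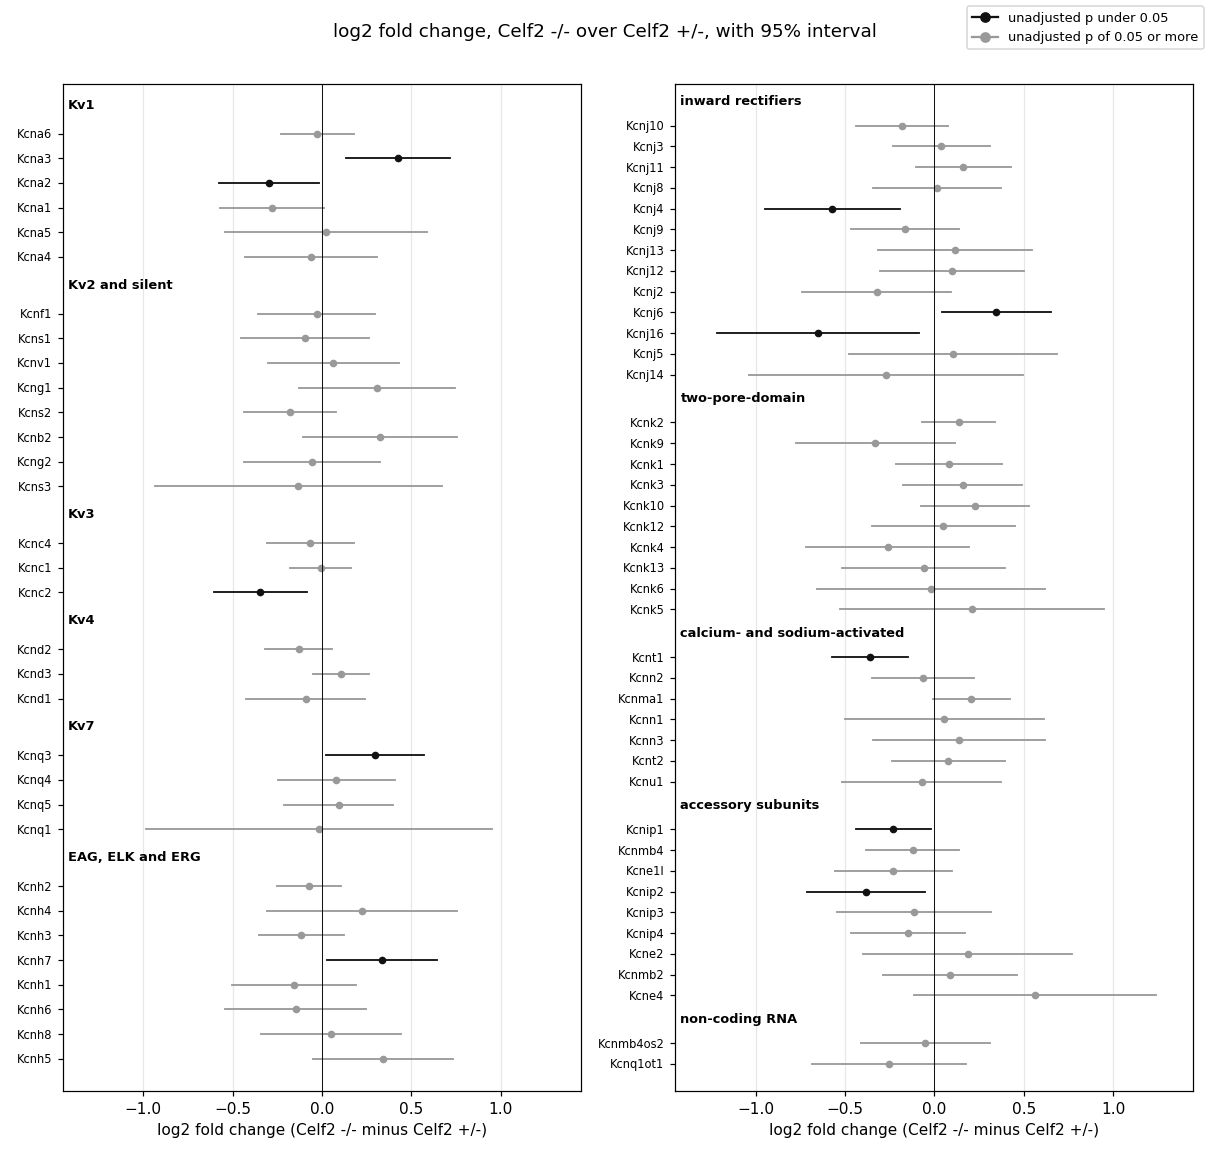
Log2 fold change of 73 tested genes (horizontal axis, null-labelled over heterozygous-labelled libraries, n = 3 each) with its 95% interval, grouped by subfamily and ordered by level. Intervals in black belong to the 11 genes with an unadjusted p under 0.05, none of which passed after adjustment over all genes.

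Levels were compared between genes as CPM per kilobase of the gene length in the authors' table, whose gene model is not stated. Genes with a high level per length included Kcnd2, Kcnip1, Kcnc4, Kcna6, Kcnd3, Kcnt1, Kcnk2, Kcnmb4 and Kcnk9. Of all tested genes, 15 were at 10 CPM per kilobase or more, 51 from 1 to 10, and 10 under 1. In 8 of 11 subfamilies the same gene led in all 6 libraries. Kcnj10 and Kcnk2 each led in 5 of 6. For 48 genes the highest of the 6 libraries was under 1.5 times the lowest, and for 10 it was over 2 times. Null-labelled replicate 2 was the highest library for 16 genes and the lowest for 17, and null-labelled replicate 4 the highest for 18 and the lowest for 6.

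**Figure D3:**
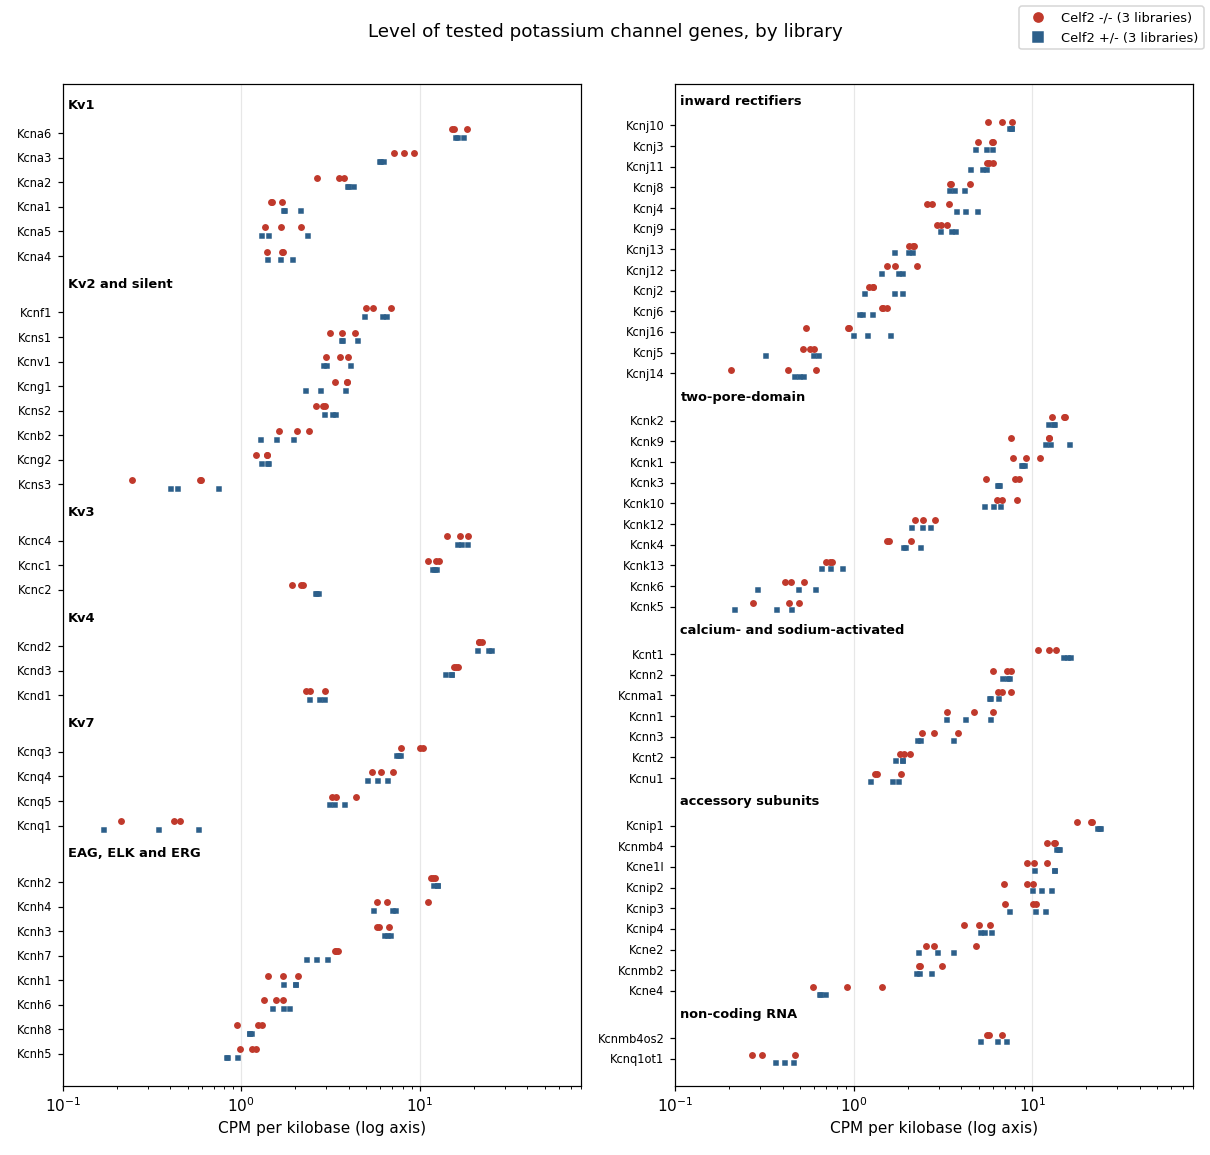
CPM per kilobase (log axis) of 73 tested genes in each library, null-labelled as red circles and heterozygous-labelled as blue squares below them, grouped by subfamily. For most genes the points of the groups lie over each other.

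CELF proteins bind GU-rich stretches of RNA, so the 3′ UTRs of the channel genes were searched on the transcript strand for the 9-mers UGUUUGUUU and UGUGUGUGU, which can overlap by their first or last bases. The longest annotated 3′ UTR of each gene in GENCODE M21 (GRCm38) was used, which 74 of 76 tested channel genes and 92.6% of all genes tested had. UGUUUGUUU was in 6 channel genes (8.11%), beside 11.1% of all genes tested with a 3′ UTR, and UGUGUGUGU in 12 (16.2%), beside 13.5%. The median 3′ UTR was 1799 bases long in the channel genes and 1234 bases in all. Of the 11 genes with an unadjusted p under 0.05, 0 held UGUUUGUUU and 2 held UGUGUGUGU, namely Kcna2, with a negative fold change, and Kcnq3, with a positive one. A match describes the letters alone.

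The first match in 6 of these genes is shown 5′ to 3′ as RNA, with the match in capitals. Kcna2 and Kcnq3 are shown because they are among the 11, and the others because they hold UGUUUGUUU.
Kcna2: cauguaccucUGUGUGUGUgucugaaccc
Kcnq3: cacgacacauUGUGUGUGUguacgcgcgc
Kcnma1: uguuguuauuUGUUUGUUUguuuuuaagu
Kcnb2: augguuuuuaUGUUUGUUUcaaaacaaaa
Kcnk10: ccaccccuagUGUUUGUUUucugcauggu
Kcnt2: uuugauugauUGUUUGUUUuugguaacuu
The windows shown lie on GRCm38, which differs from the mouse build named in the submitters' notes. That of Kcna2 is at chr3:107111178-107111206 (+ strand, 5584 bases past the stop codon). The one in Kcnq3 is at chr15:65991315-65991343 (- strand, 3838 bases past the stop codon). That of Kcnma1 is at chr14:23296830-23296858 (- strand, 3173 bases past the stop codon). The one in Kcnb2 is at chr1:15713439-15713467 (+ strand, 1820 bases past the stop codon). That of Kcnk10 is at chr12:98430978-98431006 (- strand, 3811 bases past the stop codon). The one in Kcnt2 is at chr1:140610379-140610407 (+ strand, 677 bases past the stop codon). The whole gene length in the authors' table was 2878 bases for Kcnq3 and 2533 bases for Kcnk10. Their matches thus lie outside the gene models behind those lengths, and the counted RNAs are not shown to hold them. For the other genes shown, Kcnt2 with a length of 3957 bases among them, whether the match lies inside the gene model was not checked. The log2 fold changes of the UGUUUGUUU genes shown were 0.21 for Kcnma1, 0.32 for Kcnb2, 0.23 for Kcnk10 and 0.08 for Kcnt2. Those of the other UGUUUGUUU genes, Kcnk3 and Kcnj2, were 0.16 and -0.32. These genes were named for the match, and none of the 6 passed the test.

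Among the Kv1 genes, the Shaker-type channels that set spike threshold along axons, 6 of 8 were tested, with 2 positive and 4 negative fold changes (median -0.04, from -0.30 to 0.42). Kcna6 led the group at 16.4 ± 1.81 CPM per kilobase in null-labelled and 16.7 ± 0.894 CPM per kilobase in heterozygous-labelled libraries (SD, n = 3 each). Kcna3, a channel also known from lymphocytes and microglia, was at 14.2, 18.3 and 16.0 CPM in null-labelled replicates 2, 4 and 10, against 12.5, 11.9 and 11.8 CPM in heterozygous-labelled replicates 6, 7 and 11. Every null-labelled library was above every heterozygous-labelled one, but the difference did not pass (log2 fold change 0.42, SE 0.13, edgeR adjusted p = 0.530). Kcna2, which together with Kcna1 forms the channels beside nodes of Ranvier in the mature nervous system, was at 30.8, 40.6 and 43.8 CPM in the null-labelled libraries, against 45.8, 46.7 and 49.3 CPM in the heterozygous-labelled ones. Here all null-labelled libraries were lower, replicate 2 by most (log2 fold change -0.30, SE 0.13, edgeR adjusted p = 0.685), and without that library the log2 fold change was -0.16. Kcna1 was at 13.9 ± 1.08 CPM in null-labelled and 16.8 ± 2.10 CPM in heterozygous-labelled libraries (log2 fold change -0.28, SE 0.13, edgeR adjusted p = 0.721), also without overlap, and its log2 fold change was -0.17 without heterozygous-labelled replicate 7. Kcna1 and Kcna2 together thus had lower values, and Kcna3 higher values, in null-labelled libraries, with none passing the test.

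The Kv2 group holds delayed rectifiers, Kcnb2 among them, and the silent subunits that conduct only when joined to them. Of 12 genes 9 were tested, 4 positive and 5 negative (median -0.03, from -0.18 to 0.32), and 0 had an unadjusted p under 0.05. Kcnf1, a silent subunit, was at 26.2, 32.9 and 24.0 CPM in the null-labelled libraries, against 31.3, 29.9 and 23.6 CPM in the heterozygous-labelled ones. The groups overlapped (log2 fold change -0.03, SE 0.15, edgeR adjusted p = 0.986). Kcnb2, named after its values were seen, was at 10.9, 12.6 and 8.62 CPM in the null-labelled libraries, against 8.46, 10.46 and 6.82 CPM in the heterozygous-labelled ones, also with overlap (log2 fold change 0.32, SE 0.19, edgeR adjusted p = 0.804).

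Kv3 channels, which close fast and allow rapid firing, were led per length by Kcnc4 at 16.6 ± 2.20 CPM per kilobase in null-labelled and 17.3 ± 1.12 CPM per kilobase in heterozygous-labelled libraries. Kcnc1, the Kv3 gene of fast-spiking interneurons, averaged 114 ± 8.40 CPM in null-labelled and 114 ± 2.97 CPM in heterozygous-labelled libraries, with a log2 fold change of -0.01 and a 95% interval of -0.18 to 0.16. Kcnc2, also a gene of fast-spiking interneurons, was at 13.7, 11.99 and 13.4 CPM in the null-labelled libraries, against 16.2, 16.5 and 16.8 CPM in the heterozygous-labelled ones. All null-labelled libraries were lower and the heterozygous-labelled ones lay within a narrow range (log2 fold change -0.34, SE 0.12, edgeR adjusted p = 0.602). All 4 fold changes of the group were negative, 0 positive, yet that of Kcnc4 was -0.06 and that of Kcnc1 -0.01.

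Kv4 channels carry the fast transient current of dendrites. The Kv4 level was split between Kcnd2 and Kcnd3, with Kcnd2 at 54.0% and Kcnd3 at 39.7% of it per length in null-labelled libraries, and 57.4% and 36.0% in heterozygous-labelled ones. Kcnd2 was at 96.9, 101.1 and 97.7 CPM in the null-labelled libraries, against 111, 116 and 96.0 CPM in the heterozygous-labelled ones, with overlap through heterozygous-labelled replicate 11 (log2 fold change -0.13, SE 0.08, edgeR adjusted p = 0.830). Kcnd3 was at 112, 118 and 115 CPM in the null-labelled libraries, against 109.7, 102 and 109 CPM in the heterozygous-labelled ones. The null-labelled libraries were all above the heterozygous-labelled ones, by a small margin (log2 fold change 0.11, SE 0.07, edgeR adjusted p = 0.834, 95% interval -0.05 to 0.26). The fold changes of these subunits, which can share a tetramer, had opposite signs, and neither passed.

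The KChIP proteins encoded by Kcnip1 to Kcnip4 bind Kv4 channels, carry them to the membrane and sense calcium. All 4 had negative fold changes. Kcnip1 led the accessory subunits per length, and was at 51.9, 62.5 and 63.5 CPM in null-labelled replicates 2, 4 and 10, against 71.0, 69.6 and 68.1 CPM in heterozygous-labelled replicates 6, 7 and 11. Each null-labelled library was lower, replicate 2 by most (log2 fold change -0.23, SE 0.09, edgeR adjusted p = 0.666), and without it the log2 fold change was -0.14. Kcnip2 was at 25.1, 23.2 and 17.3 CPM in the null-labelled libraries, against 32.0, 28.3 and 25.2 CPM in the heterozygous-labelled ones. The groups barely separated, since null-labelled replicate 2 and heterozygous-labelled replicate 11 were almost equal (log2 fold change -0.38, SE 0.15, edgeR adjusted p = 0.646). Without null-labelled replicate 10 the log2 fold change was -0.24. Kcnip3, also known as the transcriptional repressor DREAM, averaged 32.9 ± 6.82 CPM in null-labelled and 35.6 ± 7.93 CPM in heterozygous-labelled libraries, and its spread within each group exceeded the difference (log2 fold change -0.12, SE 0.19, edgeR adjusted p = 0.949), whose sign was positive, at 0.047, without null-labelled replicate 10. Kcnip4 averaged 14.7 ± 2.49 CPM in null-labelled and 16.3 ± 1.199 CPM in heterozygous-labelled libraries (log2 fold change -0.15, SE 0.14, edgeR adjusted p = 0.898, and -0.03 without null-labelled replicate 2). The summed level per length of the Kv4 pore genes was 40.2 ± 0.613 CPM per kilobase in null-labelled and 41.2 ± 1.94 CPM per kilobase in heterozygous-labelled libraries.

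**Figure D4:**
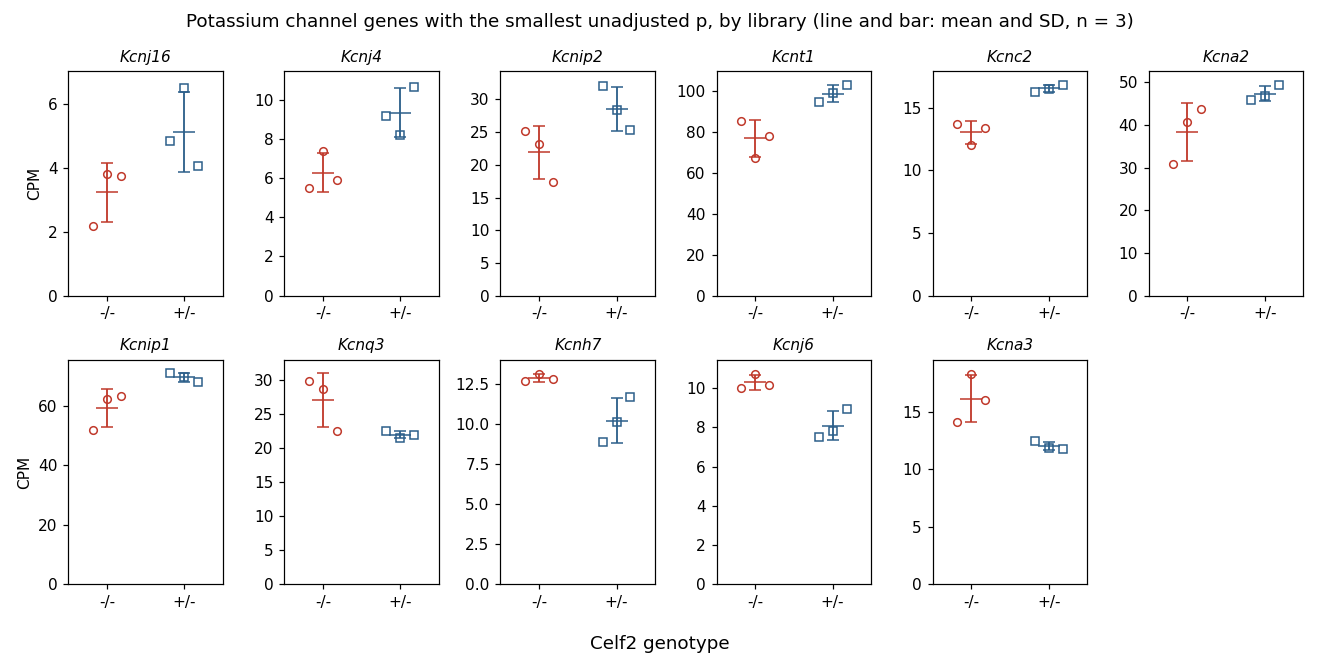
CPM of the 11 channel genes with an unadjusted p under 0.05 in each library, null-labelled (-/-) on the left and heterozygous-labelled (+/-) on the right, with mean and SD (n = 3). Panels run from Kcnj16, with the most negative log2 fold change of the 11, to Kcna3, with the most positive. The groups do not overlap in any panel, but they come very close for Kcnq3 and Kcnip2.

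Kv7 channels carry the M-current, a slow brake on repetitive firing, and loss-of-function variants of the human gene for Kcnq3 cause seizures of the newborn. Kcnq3 was at 29.8, 28.7 and 22.5 CPM in the null-labelled libraries, against 22.5, 21.5 and 22.0 CPM in the heterozygous-labelled ones. Null-labelled replicates 2 and 4 were higher, whereas null-labelled replicate 10 was almost equal to heterozygous-labelled replicate 6 (log2 fold change 0.30, SE 0.12, edgeR adjusted p = 0.671). Those 2 high libraries are also the ones with high immediate-early sums, whose part in the result was not tested. Kcnq5, another subunit of M-current channels in the forebrain, averaged 25.5 ± 4.30 CPM in null-labelled and 24.0 ± 2.43 CPM in heterozygous-labelled libraries, with a log2 fold change of 0.09. Of the 5 Kv7 genes 4 were positive and 1 negative, or 3 and 2 with library size alone.

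The ether-à-go-go family (Kcnh) had all 8 genes tested, 4 positive and 4 negative (median -0.01, from -0.16 to 0.34). Kcnh2, the ERG channel that also repolarizes the heart, led at 11.8 ± 0.373 CPM per kilobase in null-labelled and 12.5 ± 0.434 CPM per kilobase in heterozygous-labelled libraries, and its log2 fold change was -0.07 (95% interval -0.25 to 0.11). Kcnh7, another ERG channel, was at 12.7, 13.1 and 12.8 CPM in the null-labelled libraries, against 8.86, 10.1 and 11.7 CPM in the heterozygous-labelled ones. All null-labelled libraries were higher and close to each other (log2 fold change 0.33, SE 0.14, edgeR adjusted p = 0.671). Kcnh4 was at 41.9, 24.7 and 21.8 CPM in the null-labelled libraries, against 26.8, 20.9 and 27.8 CPM in the heterozygous-labelled ones, and null-labelled replicate 2 alone stood out (log2 fold change 0.22, SE 0.23, edgeR adjusted p = 0.908). Without that library the log2 fold change was -0.11. Kcnh1, the EAG channel of the brain, was at 12.5, 15.0 and 10.2 CPM in the null-labelled libraries, against 14.7, 14.6 and 12.6 CPM in the heterozygous-labelled ones, with overlap (log2 fold change -0.16).

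Inward rectifiers fall into strong rectifiers, G-protein-gated channels, ATP-sensitive channels and glial or epithelial channels, and 13 of 15 were tested (7 positive, 6 negative, or 5 and 8 with library size alone, and 6 and 7 with upper-quartile factors). Kcnj4, a strong rectifier of forebrain neurons, was at 5.51, 7.39 and 5.91 CPM in null-labelled replicates 2, 4 and 10, against 9.16, 8.20 and 10.7 CPM in heterozygous-labelled replicates 6, 7 and 11. All null-labelled libraries were lower (log2 fold change -0.57, SE 0.17, edgeR adjusted p = 0.528). Of the G-protein-gated channels, which open when inhibitory receptors are active, Kcnj6 was at 10.00, 10.7 and 10.2 CPM in the null-labelled libraries, against 7.52, 7.83 and 8.94 CPM in the heterozygous-labelled ones. Each null-labelled library was higher (log2 fold change 0.35, SE 0.14, edgeR adjusted p = 0.654). Kcnj3, whose product pairs with that of Kcnj6, averaged 29.4 ± 3.12 CPM in null-labelled and 28.7 ± 3.195 CPM in heterozygous-labelled libraries (log2 fold change 0.04, and -0.04 with library size alone). The other tested genes of the G-protein-gated class had fold changes of both signs, with overlapping groups. Kcnj11, the pore of the ATP-sensitive channel of neurons, averaged 18.8 ± 0.804 CPM in null-labelled and 16.8 ± 1.76 CPM in heterozygous-labelled libraries (log2 fold change 0.16, SE 0.12, edgeR adjusted p = 0.848).

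Several channel genes are known best from cells other than neurons. Kcnj10, the astrocyte channel that clears potassium, led the inward rectifiers per length at 6.71 ± 1.03 CPM per kilobase in null-labelled and 7.62 ± 0.122 CPM per kilobase in heterozygous-labelled libraries, and was at 30.5, 36.8 and 41.6 CPM in the null-labelled libraries, against 40.4, 41.4 and 41.7 CPM in the heterozygous-labelled ones. Null-labelled replicates 2 and 4 were the lowest, and the groups overlapped through replicate 10 (log2 fold change -0.18, SE 0.12, edgeR adjusted p = 0.823, and -0.07 without null-labelled replicate 2). Kcnj16, which joins Kcnj10 in a common channel, was at 2.16, 3.80 and 3.73 CPM in the null-labelled libraries, against 4.82, 6.48 and 4.05 CPM in the heterozygous-labelled ones. All null-labelled libraries were lower, replicate 2 by most (log2 fold change -0.65, SE 0.25, edgeR adjusted p = 0.646). The astrocyte marker sum, of which Apoe was the largest part, moved the same way. Its lowest library was null-labelled replicate 2, at 1090.2 CPM, and its part in these values was not tested. Without that library the log2 fold change of Kcnj16 was -0.44, and without heterozygous-labelled replicate 7 it was -0.45. It was -0.79 without heterozygous-labelled replicate 11 and -0.90 with sex as a covariate.

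Kcnj8, the ATP-sensitive channel of pericytes, averaged 8.35 ± 1.29 CPM in null-labelled and 8.24 ± 0.822 CPM in heterozygous-labelled libraries (log2 fold change 0.02), and markers of endothelium and pericytes, 6 of 6 tested, summed to 251 to 305 CPM in null-labelled and 244 to 284 CPM in heterozygous-labelled libraries. Kcnj13 and Kcne2 are known from the choroid plexus. Kcnj13 was at 2.91, 2.76 and 2.92 CPM in the null-labelled libraries, against 2.29, 2.73 and 2.91 CPM in the heterozygous-labelled ones. Kcne2 was at 8.23, 4.27 and 4.79 CPM in the null-labelled libraries, against 5.01, 6.17 and 3.94 CPM in the heterozygous-labelled ones. The highest Kcne2 values were in null-labelled replicate 2 and heterozygous-labelled replicate 7, which were also the libraries with the highest choroid plexus sums, 801 and 850.5 CPM, against 549 to 697 CPM elsewhere (6 of 6 markers tested). Kcnj13 was not highest in these libraries. Kcnk13 and Kcnk6, K2P channels found in immune cells, Kcnk13 above all in microglia, were low, at 2.26 ± 0.0905 CPM in null-labelled and 2.35 ± 0.320 CPM in heterozygous-labelled libraries for Kcnk13 and 1.88 ± 0.232 CPM in null-labelled and 1.91 ± 0.671 CPM in heterozygous-labelled libraries for Kcnk6. Microglial markers, 6 of 6 tested, summed to 55.6 to 71.5 CPM in null-labelled and 54.6 to 70.2 CPM in heterozygous-labelled libraries. None of these marker sums separated the groups.

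K2P leak channels had 10 of 14 genes tested, 6 positive and 4 negative (5 and 5 with library size alone), and 0 with an unadjusted p under 0.05. Kcnk2, a leak channel opened by stretch, heat and lipids, was at 62.5, 61.8 and 53.0 CPM in the null-labelled libraries, against 55.3, 51.4 and 54.5 CPM in the heterozygous-labelled ones, with overlap (log2 fold change 0.14, SE 0.09, edgeR adjusted p = 0.838). Kcnk9 and Kcnk3 encode acid-sensitive leak channels. Kcnk9 was at 9.13, 15.1 and 15.0 CPM in the null-labelled libraries, against 14.4, 19.8 and 15.4 CPM in the heterozygous-labelled ones. Null-labelled replicate 2 was low and the other libraries overlapped (log2 fold change -0.33, SE 0.20, edgeR adjusted p = 0.811). The log2 fold change was -0.13 without that library, -0.18 without heterozygous-labelled replicate 7 and -0.54 with sex as a covariate. Kcnk3 averaged 27.7 ± 5.98 CPM in null-labelled and 24.9 ± 0.379 CPM in heterozygous-labelled libraries, and replicate 2 was again the lowest, at 20.9 CPM (log2 fold change 0.16, SE 0.15, edgeR adjusted p = 0.889). Kcnk1, a weakly inward-rectifying K2P channel of neurons and astrocytes, averaged 21.6 ± 3.73 CPM in null-labelled and 20.4 ± 0.395 CPM in heterozygous-labelled libraries (log2 fold change 0.08).

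Among channels opened by intracellular calcium or sodium, Kcnt1 had the smallest p of all channel genes. It encodes the sodium-activated channel behind slow afterhyperpolarization, and gain-of-function variants of the human gene cause early epilepsies. Kcnt1 was at 85.2, 67.3 and 77.8 CPM in null-labelled replicates 2, 4 and 10, against 94.3, 98.6 and 103 CPM in heterozygous-labelled replicates 6, 7 and 11. All null-labelled libraries were lower. The difference was -0.36 on the log2 scale, with an SE of 0.10 and a 95% interval of -0.57 to -0.15. The adjusted p was 0.502 in edgeR, 0.122 in DESeq2 and 0.545 in limma-voom, none past the threshold. Its relative Kcnt2 averaged 7.66 ± 0.514 CPM in null-labelled and 7.26 ± 0.359 CPM in heterozygous-labelled libraries (log2 fold change 0.08, SE 0.14, edgeR adjusted p = 0.951). Kcnma1, the large-conductance calcium-activated channel, was at 50.6, 53.3 and 59.9 CPM in the null-labelled libraries, against 45.8, 45.3 and 50.9 CPM in the heterozygous-labelled ones. The groups overlapped through heterozygous-labelled replicate 11 (log2 fold change 0.21, SE 0.10, edgeR adjusted p = 0.720). Its neuronal accessory subunit Kcnmb4 averaged 13.0 ± 0.736 CPM in null-labelled and 14.1 ± 0.331 CPM in heterozygous-labelled libraries (log2 fold change -0.12, SE 0.12, edgeR adjusted p = 0.894), with every null-labelled library lower by a small margin.

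The small-conductance channels Kcnn1, Kcnn2 and Kcnn3, which are gated by calmodulin and follow calcium entry, had log2 fold changes of 0.06, -0.07 and 0.14. Kcnn1 was at 24.3, 19.1 and 13.5 CPM in the null-labelled libraries, against 23.9, 17.2 and 13.5 CPM in the heterozygous-labelled ones. The libraries of each group differed among themselves more than the groups did. Kcnn3 averaged 23.1 ± 5.65 CPM in null-labelled and 21.0 ± 5.72 CPM in heterozygous-labelled libraries, with similar spread. Kcnu1, chosen after its values were seen because its product is known as the potassium channel of sperm, was at 6.45, 4.75 and 4.65 CPM in the null-labelled libraries, against 6.36, 5.84 and 4.43 CPM in the heterozygous-labelled ones. Beyond the KChIP and Kcnmb4 genes, the accessory gene Kcne4 had the most positive fold change of the 76, at 2.24, 3.56 and 1.46 CPM in the null-labelled libraries, against 1.72, 1.62 and 1.60 CPM in the heterozygous-labelled ones. The level was low (log2 fold change 0.56, SE 0.31, edgeR adjusted p = 0.775), and without null-labelled replicate 4 the log2 fold change was 0.16.

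The rule also took in 4 non-coding RNAs that carry a channel gene's name. Kcnq1ot1, the imprinted antisense RNA that silences genes of its cluster, was at 39.0, 22.3 and 25.7 CPM in the null-labelled libraries, against 38.8, 30.6 and 34.2 CPM in the heterozygous-labelled ones, with overlap (log2 fold change -0.26, SE 0.19, edgeR adjusted p = 0.854). The log2 fold change was -0.53 without null-labelled replicate 2 and -0.10 without null-labelled replicate 4. Kcnmb4os2 averaged 9.61 ± 1.04 CPM in null-labelled and 9.97 ± 1.64 CPM in heterozygous-labelled libraries (log2 fold change -0.05). The sources used here do not say how strand was used in counting, so reads of such RNAs and of the genes they overlap, Kcnq1 and Kcnmb4 among them, cannot be told apart.

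The 18 genes under the minimum were the Shaker-type Kcna7 and Kcna10, the silent subunits Kcng3, Kcng4 and Kcnv2, the inward rectifiers Kcnj1, known from the kidney, and Kcnj15, the leak channels Kcnk7, Kcnk15, Kcnk16 and Kcnk18, the calcium-activated Kcnn4, the accessory Kcne1, Kcne3, Kcnmb1 and Kcnmb3, and the non-coding Kcnd3os and Kcnmb4os1. Kcng3, named with Kcnq1 after their values were seen, came closest to being tested, at 0.551, 1.10 and 0.577 CPM in the null-labelled libraries, against 0.700, 0.945 and 1.06 CPM in the heterozygous-labelled ones. Kcnn4, the calcium-activated channel of blood cells and microglia, was at 0.236 to 0.979 CPM in null-labelled and 0.543 to 0.754 CPM in heterozygous-labelled libraries. Just inside the minimum lay Kcnq1, at 1.38, 1.28 and 0.645 CPM in the null-labelled libraries, against 1.75, 1.046 and 0.514 CPM in the heterozygous-labelled ones. A count of 0 in a library allows up to 0.0808 to 0.118 CPM, which is 3 counts on the CPM scale used here and covers counting error only.

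Genes whose products bind, cluster or gate these channels were read from a separate list of 37 genes. All 37 were in the table and 35 were tested, Lrrc38 and Lrrc52 being too low. Of these, 17 had positive and 18 negative fold changes (median -0.03), and 0 passed. At an unadjusted p under 0.05, 2 had higher and 3 lower values in null-labelled libraries, where 4.15% of all genes were higher and 2.92% lower. Cntnap1, which holds the junctions beside the node that keep Kv1 channels in place, was at 20.6, 21.6 and 15.1 CPM in null-labelled replicates 2, 4 and 10, against 28.9, 29.5 and 23.8 CPM in heterozygous-labelled replicates 6, 7 and 11. The groups did not overlap (log2 fold change -0.52, SE 0.15, edgeR adjusted p = 0.522). Cntn2, an adhesion protein that clusters Kv1 channels along myelinated axons, averaged 390.1 ± 16.1 CPM in null-labelled and 304 ± 22.5 CPM in heterozygous-labelled libraries (log2 fold change 0.36, SE 0.07, edgeR adjusted p = 0.354). Kctd12, an auxiliary protein of the receptor that opens G-protein-gated rectifiers, averaged 253 ± 16.6 CPM in null-labelled and 209.6 ± 15.8 CPM in heterozygous-labelled libraries (log2 fold change 0.27, SE 0.08, edgeR adjusted p = 0.519). The other genes with such a p were Lgi1, a secreted partner of Kv1 complexes (log2 fold change -0.23), and Calm3, a calmodulin gene (log2 fold change -0.17). The Kv4 partners Dpp6 and Dpp10 lay at -0.03 and -0.07, and the Kv1 beta subunits Kcnab1, Kcnab2 and Kcnab3 at -0.08, -0.20 and 0.06.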

How the data were processed

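The deposited table held whole-number read counts per gene symbol, one column a library, and a gene length in bases. Per the labels' protocols TRIzol RNA went into a stranded total-RNA library kit, whereas the design text speaks of poly(A) libraries. The submitters' processing notes list STAR, cutadapt, CASAVA, MACS2, bedtools and Picard, and as builds mm9 and hg19, without saying what each was used for. How reads were assigned to genes, with which annotation and strand setting, is not given in the sources used here. Overlapping genes and near-identical copies are therefore uncertain.

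Genes with a CPM of 1 or more in at least 3 of 6 libraries were kept, as the choice of tested channel genes asks, and fitted together. Counts were tested with edgeR 4.0.16 in R 4.3.3 (TMM factors, robust quasi-likelihood test, Benjamini-Hochberg adjustment over all 14494 genes at 0.05). Each SE is the absolute log2 fold change over the root of its F statistic. CPM values use TMM-scaled sizes of the tested genes. Common variation between replicates (BCV) was 13.6%. DESeq2 1.42.0, limma-voom (limma 3.58.1), other scalings and filters, covariates and leaving out each library were alternatives, and the last kept the same genes. The smallest chi-square per gene between any pair of libraries was 11.2, so none was a copy of another. The steps were tested on simulated data. Named were genes with a p under 0.05, the leading pair per subfamily, the 3 most positive and 3 most negative fold changes at a mean of at least 50 counts, and a fixed list. The genes and lists were chosen with earlier results of these data known, so they are no independent support. Results for some genes are not reported here.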

Additional observations from a re-analysis of the deposited data

How the results depend on the processing

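Over all genes tested edgeR called 0, against 2 with upper-quartile factors, 2 with library size alone, 1 with filterByExpr, 3 without a low-count filter, 60 by DESeq2, 8 with sex, read from Y-linked genes, as a covariate, 6 with a term for pups 10 and 11, and 0 to 4 without single libraries, the 4 without null-labelled replicate 10. No channel gene was called in any of these 17 fits (0 in each). The channel genes with an unadjusted p under 0.05 numbered 11, against 9 to 15 in the fits with all 6 libraries and 5 to 15 without single libraries. The 5 came without heterozygous-labelled replicate 6 or 7, which also lowered the count over all genes to 725 and 506, against 1024 with all libraries. The 15 came with the term for pups 10 and 11, where 1649 of all genes (11.4%) had such a p, and without heterozygous-labelled replicate 11, where 1479 (10.2%) did. The median of the channel genes was -0.10 with library size alone, where that of all genes was -0.08. Celf2 ranged from -0.18 to 0.036 without single libraries and was positive without null-labelled replicate 10 (0.036) or heterozygous-labelled replicate 6 (0.024).

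Of 765 alternative fold changes of named channel genes, 723 kept their direction and 42, in 18 genes, changed sign, and none passed the threshold. The cause of the sign changes was not tested. With library size alone Kcnj3 was at -0.037, Kcnj8 at -0.077, Kcnn1 at -0.039 and Kcnt2 at -0.0015. Kcnj8 was at -0.0011 with upper-quartile factors and -0.001 with limma-voom, Kcnk6 at 0.0497 with limma-voom and 0.0048 with the term for pups 10 and 11, and Kcnj3 at -0.019 with sex as a covariate. Without single libraries the ranges of genes that changed sign were, in log2 fold change, Kcna6 -0.12 to 0.029, Kcnc1 -0.052 to 0.051, Kcnc4 -0.16 to 0.033, Kcne2 -0.15 to 0.37, Kcnf1 -0.17 to 0.067, Kcnh4 -0.11 to 0.40, Kcnip3 -0.28 to 0.047, Kcnj3 -0.045 to 0.12, Kcnj8 -0.12 to 0.097, Kcnk1 -0.055 to 0.20, Kcnk13 -0.15 to 0.049, Kcnk6 -0.27 to 0.24, Kcnmb4os2 -0.17 to 0.059, Kcnn1 -0.16 to 0.30, Kcnn2 -0.13 to 0.026, Kcnn3 -0.079 to 0.38, Kcnq5 -0.054 to 0.18. The 11 genes with an unadjusted p under 0.05 kept their sign in all 17 fits. These fits reuse the libraries by which the genes were picked, so this is no separate support for them. No paired analysis was possible because the groups share no replicate number. With 3 libraries a group, the 95% interval of Kcne4, Kcnj16 and Kcnj14 reached past a 2-fold change.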
